A study of Mus musculus with 6 samples.

Results

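Integrins, laminins and nidogens are cell surface receptors and basement membrane proteins, and 38 of their genes were followed here among 22180 genes measured on 6 Affymetrix arrays of sorted mouse embryo cells. They were chosen by gene name: the alpha and beta integrin chains and the integrin beta-like gene Itgbl1 (26 genes), the laminin alpha, beta and gamma chains (10 genes) and the nidogens (2 genes). Itga10 was not analysed here. Where a gene had several probe sets, the brightest over the 6 arrays was used, which touched 2 members, Itgav and Nid1.

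The cells came from the dorsal body wall of 129SV embryos at E14.5, a day of mid gestation. All embryos carried one copy of an allele that reports Ebf2, an early B cell factor, with green fluorescent protein (GFP). All cells were sorted for the mesenchymal surface receptor PDGFRα, so the reporter allele and the receptor are shared by both groups. Cells with GFP formed the GFP-positive group (n = 3 arrays, Ebf2(GFP)+:Pdgfra+) and cells without it the GFP-negative group (n = 3 arrays, Ebf2(GFP)-:Pdgfra+). The mice were housed at 20 °C. The labels do not say whether a replicate pooled embryos or litters, so the p-values cover no more than how these 6 preparations varied, possibly for technical reasons alone. The title of the series presents Ebf2 as a marker of brown and beige fat precursors, and its design compares cells that express it with their PDGFRα-positive neighbours.

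Integrins are pairs of one alpha and one beta chain that span the membrane and tie the matrix outside to the actin skeleton inside. The alpha chain largely sets what is bound: collagen, laminin, or proteins such as fibronectin that carry the RGD tripeptide. Itgb1 pairs with most alpha chains of matrix receptors, whereas Itgb2 and Itgb7 pair with the alpha chains of white blood cells. Laminins are trimers of one alpha, one beta and one gamma chain that form a sheet around muscle fibres, vessels, nerves and fat cells and beneath epithelia, and nidogens link that sheet to the collagen IV network.

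Values are log2 levels as deposited, so a difference of 1 is a 2-fold difference. The correlation over genes was 0.9951 to 0.9969 between arrays within a group and 0.9845 to 0.9911 between groups. Ebf2 followed the sort, with a mean of 12.0 in GFP-positive and 8.65 in GFP-negative cells, and Pdgfra was at 13.1 and 12.9. On replicates 1, 2 and 3, Ebf2 read 8.16, 8.60 and 9.21 in GFP-negative and 12.04, 12.04 and 11.93 in GFP-positive cells. The gap between the groups was thus smallest on replicate 3. The files carry no detection calls. A mean below the 40th percentile of gene means (log2 6.78) is called dim here, and a fold against a dim mean may be a lower bound. The number of arrays limits the precision, and in bulk RNA fewer cells of a type and less RNA per cell cannot be told apart.

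The RefSeq promoter table (build GRCm38.p6) held a window of 250 bases before to 50 bases after the start site for 24 of the 38 members, 8 of them among the members that passed the test below. The windows of the 3 largest decreases and of the largest increase among those 8 are shown 5′ to 3′ on the gene's strand, to show the start regions of members that changed in each direction. Capitals mark CCCNNGGG, the core of the palindrome that early B cell factors are known to bind, and GGGCGG, the GC box, both searched on both strands.
Itgbl1, chr14:123659890-123660189, plus strand: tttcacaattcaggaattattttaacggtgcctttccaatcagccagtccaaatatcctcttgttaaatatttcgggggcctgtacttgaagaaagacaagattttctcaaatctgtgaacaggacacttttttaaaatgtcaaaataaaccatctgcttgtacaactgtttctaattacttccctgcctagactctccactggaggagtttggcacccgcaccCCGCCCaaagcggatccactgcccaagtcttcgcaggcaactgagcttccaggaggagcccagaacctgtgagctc
Itga11, chr9:62677605-62677904, plus strand: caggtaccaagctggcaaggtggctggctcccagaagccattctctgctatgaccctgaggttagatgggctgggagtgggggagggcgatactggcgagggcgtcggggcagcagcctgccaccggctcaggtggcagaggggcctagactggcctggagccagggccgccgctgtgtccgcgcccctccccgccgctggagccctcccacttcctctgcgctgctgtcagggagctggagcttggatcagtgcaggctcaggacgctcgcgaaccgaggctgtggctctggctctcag
Itga4, chr2:79255176-79255475, plus strand: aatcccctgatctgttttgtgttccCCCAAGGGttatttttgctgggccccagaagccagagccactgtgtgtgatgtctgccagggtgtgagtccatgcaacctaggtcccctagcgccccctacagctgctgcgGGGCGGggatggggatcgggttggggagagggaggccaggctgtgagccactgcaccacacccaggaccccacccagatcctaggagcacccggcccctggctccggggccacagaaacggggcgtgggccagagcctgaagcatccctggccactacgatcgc
Lamb1, chr12:31265043-31265342, plus strand: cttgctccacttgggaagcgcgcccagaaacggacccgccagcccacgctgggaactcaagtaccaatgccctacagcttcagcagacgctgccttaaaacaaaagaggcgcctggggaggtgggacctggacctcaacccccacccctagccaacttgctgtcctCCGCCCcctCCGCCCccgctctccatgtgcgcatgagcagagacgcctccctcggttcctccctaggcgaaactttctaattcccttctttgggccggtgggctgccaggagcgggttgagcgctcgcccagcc

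CCCNNGGG was present in any window of 4 of the 24 members and of 1 of the 8 members that passed, Itga4, where it began at position −225 from the start site. It was present in 13.7% of all 32851 promoter windows, a share by window and not by gene, so the 2 are not counted alike. The GC box was present for 13 of the 24 members and 5 of the 8 that passed, again by gene, and in 35.7% of all windows. Itgbl1 had 1 GC box and the lowest GC content of the 4 windows shown (45.3%), Lamb1 had 2, and Itga11 had neither motif at a GC content of 68.0%. A match is only a match of letters, and no match says nothing about binding elsewhere.

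Of the 38 members, 11 were lower and 3 higher in GFP-positive cells at a limma adjusted p under 0.05, and 24 did not pass. Among all 22180 genes tested, 3.84% were lower and 2.65% higher, and 6.49% passed in either direction. At least 2-fold decreases made up 7 of the 38 members against 1.39% of all genes. The groups did not overlap for 21 of the 38 members, against 22.0% of all genes. Of the 22180 genes, 8636 were dim in both groups, as were 4 of the 38 members. These shares over all genes are therefore not matched to the members for level. Without dim genes, 1523 genes and 14 members passed. The median log2 change was −0.06 over the members and 0.02 over all genes. With the replicate number as a block, 5 members were higher and 12 lower, where 10.0% of all genes passed. Centring each array on its median also gave 5 higher members, with 11 lower, and turned the split over all genes from 588 higher and 851 lower to 868 higher and 749 lower. A total of 7 calls held whichever array was left out, those of Itgbl1, Lama1, Itga11, Lamc3, Itga4, Itga1 and Lamb1.

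**Figure D1:**
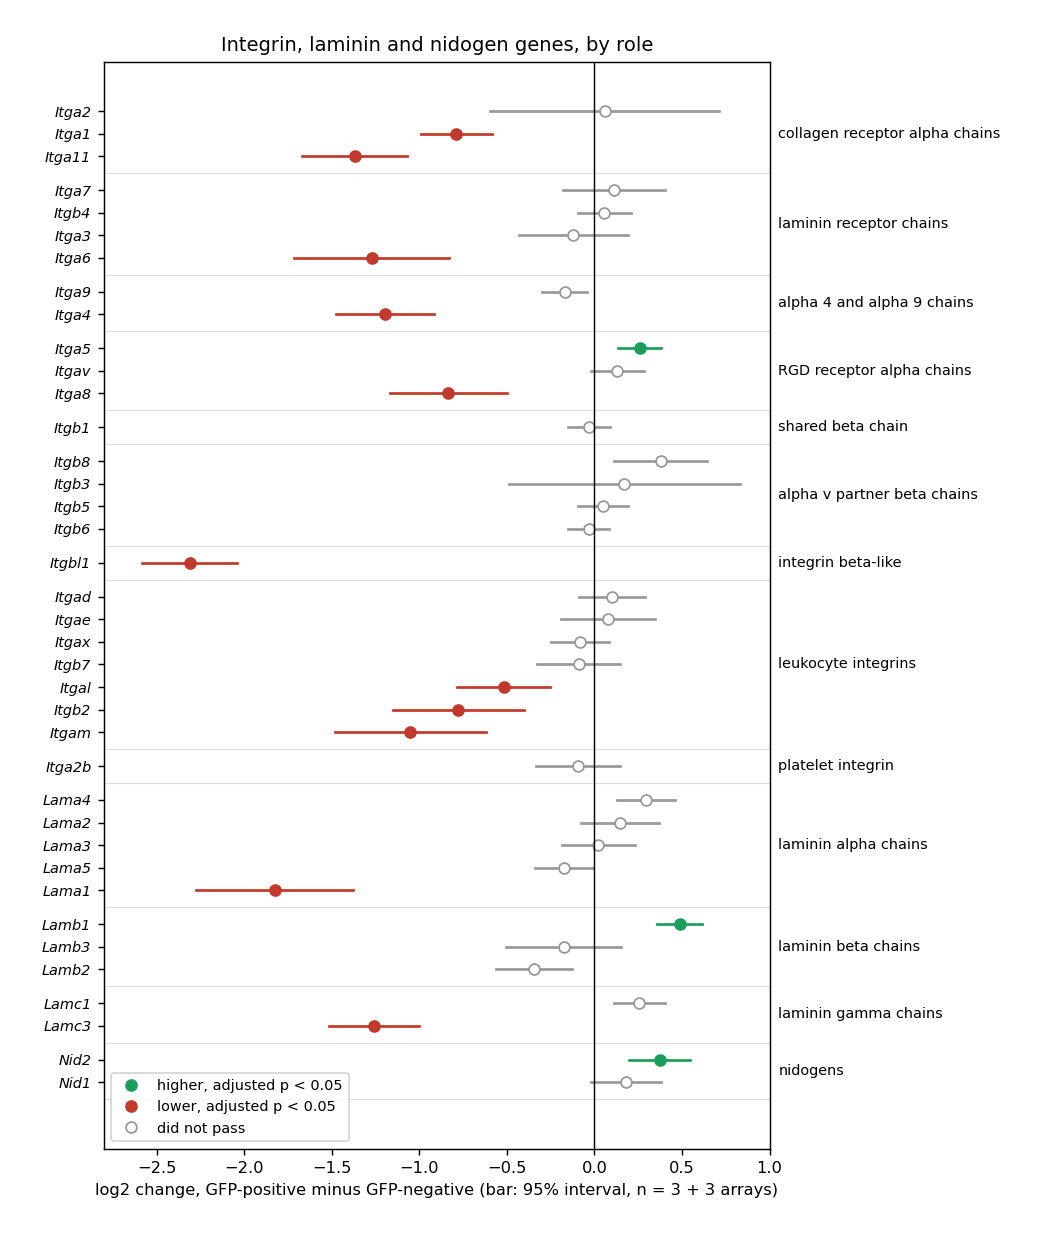
Log2 change (GFP-positive minus GFP-negative, horizontal axis) of the 38 members, grouped by role, with 95% intervals from limma. Filled points passed the test: 11 lie left of 0, down to −2.31 for Itgbl1, and 3 lie right of 0, up to 0.49 for Lamb1.

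**Figure D2:**
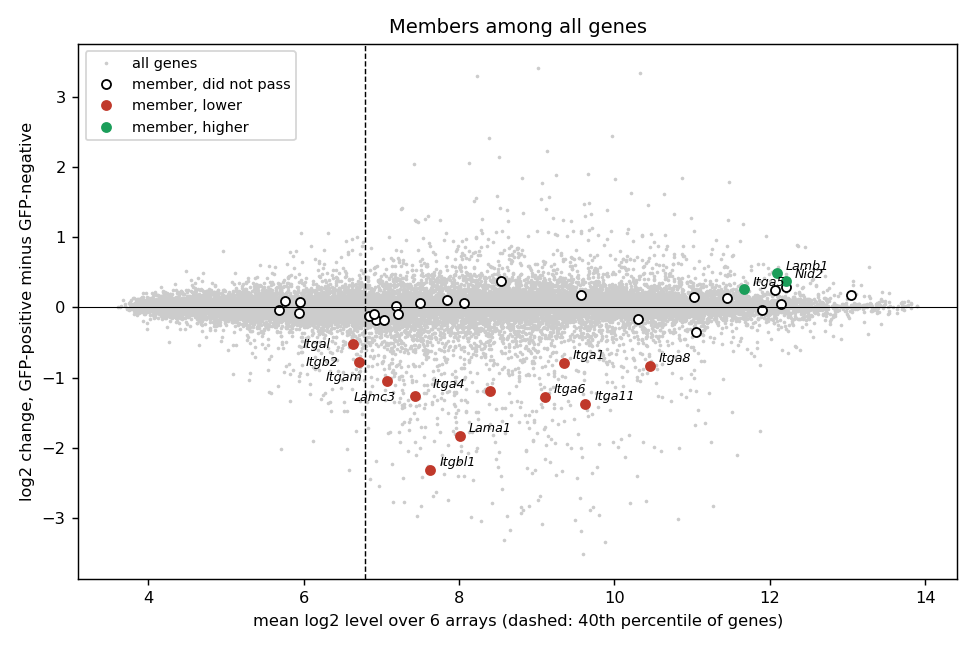
Log2 change against the mean log2 level over the 6 arrays for all 22180 genes (grey) and the 38 members (circles). The 3 members that were higher have means above 11, and all 11 that were lower have means below 11.

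Of 3 collagen receptor chains measured, 2 were lower and 1 did not pass. Itga11 encodes a receptor chain for fibrillar collagen that is typical of mesenchymal cells. It read 10.55, 10.27 and 10.11 on GFP-negative replicates 1, 2 and 3 and 8.90, 9.10 and 8.83 on GFP-positive replicates 1, 2 and 3. The lowest GFP-negative array was thus 1 log2 unit above the highest GFP-positive one, and the gene fell 2.58-fold (log2 change −1.37 ± 0.12 SE, adjusted p = 0.00204). Itga1, a collagen receptor chain of mesenchymal and smooth muscle cells, read 9.69, 9.87 and 9.67 against 8.83, 9.06 and 8.98. Its groups did not overlap either, and it fell 1.73-fold (−0.79 ± 0.08 SE, adjusted p = 0.00362). Itga2, the neighbour of Itga1 on chromosome 13 and a collagen receptor chain of epithelia and platelets, read 7.75, 8.46 and 7.90 against 7.66, 8.60 and 8.03. Replicate 2 was highest in both groups, the groups overlapped, and its change of 0.06 had a 95% interval of −0.60 to 0.71. The replicate block lowered its SE from 0.27 to 0.07, and it still did not pass (limma adjusted p = 0.678).

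Among laminin receptor chains, 1 of 4 passed. Itga6, whose chain pairs with that of Itgb1 or Itgb4, read 9.97, 9.79 and 9.44 in GFP-negative and 8.27, 8.81 and 8.32 in GFP-positive cells. All GFP-negative arrays were above all GFP-positive ones, a 2.41-fold decrease (−1.27 ± 0.19 SE, adjusted p = 0.0111). Leaving out negative replicate 2, positive replicate 1 or positive replicate 3 ended the call (adjusted p up to 0.0563). Itgb4, the hemidesmosome partner of Itga6 in epithelia, ran from 7.38 to 7.59 over all 6 arrays, and its change of 0.06 (95% interval −0.09 to 0.21, adjusted p = 0.724) did not pass. Itga7, the laminin receptor chain of muscle, changed by 0.11 (−0.18 to 0.40) and Itga3, that of epithelia, by −0.12 (−0.43 to 0.19), with overlapping groups for both. The GFP-positive mean of Itga3 was dim (6.776, against a mark of 6.784), and its GFP-negative mean was 6.90. Skeletal muscle markers did not pass in either direction (0 of 11 measured, with Myf6, Ttn, Myh3 and Myh8 dim in both groups), and 1 of 7 epidermal markers was lower, with Krt15 and Trp63 dim in both groups. With the replicate block the epidermal Krt18, chosen after its values were seen, passed as higher (limma adjusted p = 0.0413).

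Itga4, which binds VCAM-1 and fibronectin and is found on leukocytes as well as on embryonic mesenchyme, read 9.16, 8.83 and 9.01 in GFP-negative and 7.82, 7.97 and 7.61 in GFP-positive cells. Its groups lay well apart, and it fell 2.29-fold (−1.20 ± 0.12 SE, adjusted p = 0.00274). Itga9, the related chain that binds tenascin C among other proteins, ran from 10.37 to 10.41 and from 10.16 to 10.27. These ranges did not overlap, but the change of −0.17 ± 0.05 SE did not pass (adjusted p = 0.146).

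The RGD receptor chains went in opposite directions. Itga8, whose best known ligand is nephronectin, read 10.96, 11.06 and 10.59 against 10.05, 10.18 and 9.87, with no overlap, and fell 1.78-fold (−0.83 ± 0.14 SE, adjusted p = 0.0187). Replicate 3 was lowest in both groups, and the call ended without any 1 array other than negative replicate 3 (adjusted p up to 0.0815). Those fits did not use the replicate block, which on all 6 arrays gave an SE of 0.06 and an adjusted p of 0.00289. Itga5, the fibronectin receptor chain, read 11.51, 11.51 and 11.59 against 11.82, 11.76 and 11.79. It was 1.20-fold higher with groups that did not overlap (0.26 ± 0.05 SE, adjusted p = 0.0355), a small rise whose call ended without any 1 of the 6 arrays (adjusted p of 0.0564 to 0.130). Itgav, the chain shared by the vitronectin receptors, ran from 11.28 to 11.47 and from 11.48 to 11.55, and its change of 0.13 (95% interval −0.02 to 0.28, adjusted p = 0.365) did not pass.

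None of the beta chains of matrix receptors passed. Itgb1 read 11.88, 11.97 and 11.89 in GFP-negative and 11.88, 11.88 and 11.89 in GFP-positive cells, and its change of −0.03 (95% interval −0.15 to 0.09) turned to 0.02 after median centring. Itgb5, a partner of Itgav, changed by 0.05 (−0.10 to 0.19). Both intervals leave out changes as large as the decreases of Itga1 and Itga4. Itgb3, another partner of Itgav, ran from 9.09 to 9.91 and from 9.35 to 10.17, so that its interval without the replicate block was wide (−0.49 to 0.83). With that block its SE fell from 0.28 to 0.07, and it still did not pass (limma adjusted p = 0.244). Itgb8, a partner of Itgav known for activating latent TGF beta, read 8.57, 8.34 and 8.14 against 8.81, 8.73 and 8.64. Its groups did not overlap, and its change of 0.38 ± 0.11 SE did not pass (adjusted p = 0.124). The replicate block (0.0290) or leaving out negative replicate 1 (0.0460) brought it past the threshold. Itgb6, an epithelial chain, was dim on all arrays.

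Itgbl1 showed the largest change of all members. Its product resembles the extracellular repeats of beta chains, has no membrane anchor, and is not known to form a receptor with an alpha chain. It read 8.88, 8.95 and 8.53 in GFP-negative cells and 6.50, 6.41 and 6.51 in GFP-positive cells. The groups were 2 log2 units apart at their nearest arrays, and the gene fell 4.96-fold (−2.31 ± 0.11 SE, adjusted p = 0.000324). All 3 GFP-positive arrays were dim, so the fold may be a lower bound.

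The cartilage markers moved with these genes: 10 of 10 were lower in GFP-positive cells, led by Matn1 (−2.40), and their summed linear level ran from 21951 to 27271 on GFP-negative and from 7953 to 9288 on GFP-positive arrays, with no marker dim in either group. Of 6 Schwann cell markers measured, 2 were lower (Fabp7 and Sox10), with sums of 4508 to 5808 and 1591 to 2326, and Cdh19 was dim in both groups. Fabp7 alone, with log2 means of 12.0 and 10.3, made up most of those Schwann sums. Of 10 mural markers, 4 were lower, with sums of 16151 to 17255 and 13829 to 14678. Of 12 endothelial markers, 1 was lower and 1 higher, and the ranges of their sums (8684 to 11737 and 9371 to 10727) overlapped. With the replicate block the mural call of Tagln ended (limma adjusted p = 0.0524). The Schwann cell marker Mbp (0.0221) and the endothelial Pecam1 (0.0407) then passed as lower, and the mural Abcc9 (0.0432) as higher. These genes were chosen after their values were seen. The part of these cell types in the changes of Itga11, Itga1, Itga6, Itga4, Itga8, Itgbl1 and the laminins was not tested.

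**Figure D3:**
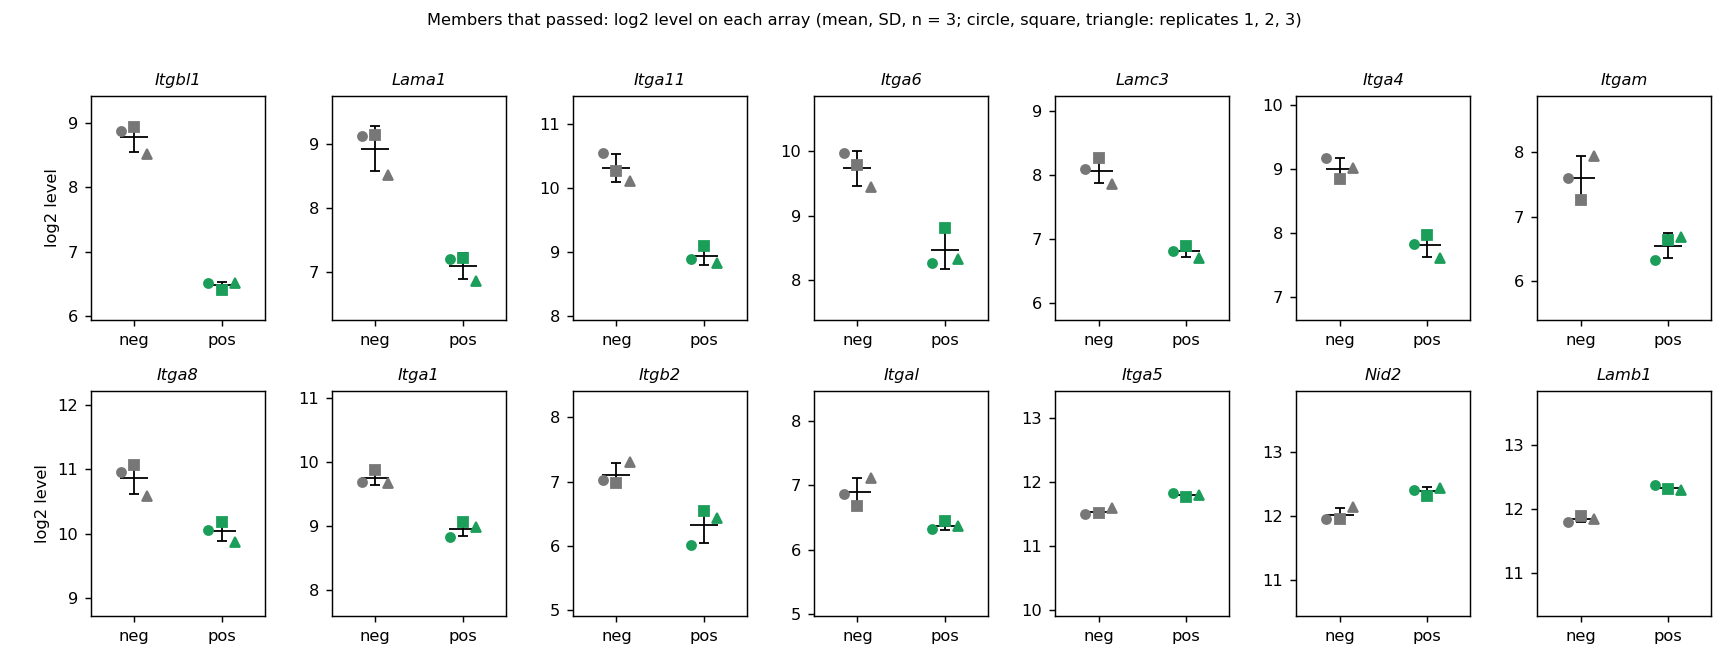
Log2 level (vertical axis, 3.5 units in every panel) of the 14 members that passed, on GFP-negative (grey) and GFP-positive (green) arrays, ordered by log2 change, with mean and SD (n = 3). No panel has overlapping groups, and the last 3 (Itga5, Nid2 and Lamb1) are those higher in GFP-positive cells.

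Leukocyte integrins were a separate group, of which 3 of 7 were lower and none higher. Itgam, the alpha chain of the macrophage and neutrophil receptor Mac-1, read 7.60, 7.26 and 7.94 in GFP-negative and 6.33, 6.64 and 6.68 in GFP-positive cells, without overlap, and fell 2.07-fold (−1.05 ± 0.18 SE, adjusted p = 0.0201). Itgb2, its beta chain, read 7.03, 6.97 and 7.31 against 6.01, 6.54 and 6.44 and fell 1.71-fold (−0.78 ± 0.16 SE, adjusted p = 0.0354). Itgal, the alpha chain of LFA-1 on lymphocytes and other white cells, read 6.87, 6.68 and 7.12 against 6.31, 6.44 and 6.36 and fell 1.43-fold (−0.52 ± 0.11 SE, adjusted p = 0.0441). The GFP-positive means of all 3 were dim, so these folds may be lower bounds. With 1 array left out, the call of Itgam held only without negative replicate 2 or 3 (adjusted p up to 0.0853 over the arrays left out), that of Itgal only without negative replicate 2 (up to 0.164), and that of Itgb2 ended without any 1 array (0.0611 to 0.101).

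The other leukocyte chains did not pass. Itgax and Itgad follow Itgam directly on chromosome 7, and Itgae is the partner of Itgb7 on lymphocytes of epithelia. All 3 were dim in both groups, with changes of −0.08, 0.10 and 0.08, and their groups overlapped. Itgb7 ran from 6.85 to 7.10 and from 6.71 to 7.01. Itga2b, the platelet alpha chain, changed by −0.10 (95% interval −0.34 to 0.14). Of 5 measured platelet markers, 1 (Pf4, which macrophages can also express) was lower, Gp6 and Treml1 were dim in both groups, and the sums ran from 1521 to 2419 and from 538 to 864. Pf4, with log2 means of 10.3 and 7.38, made up most of the sums on GFP-negative arrays.

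Macrophage and leukocyte markers moved with Itgam, Itgb2 and Itgal. All 16 were lower in GFP-positive cells, led by Mrc1 (−3.34), Adgre1 (−3.31) and Csf1r (−2.84). Their summed linear level was 22618, 15260 and 29088 on GFP-negative replicates 1, 2 and 3 and 2651, 4908 and 5656 on GFP-positive replicates 1, 2 and 3. None was dim in the GFP-negative group and 5 were in the GFP-positive group. Within the GFP-negative group, Itgam, Itgb2 and Itgal were each highest on replicate 3 and lowest on replicate 2, as was the marker sum. Within the GFP-positive group all 3 were lowest on replicate 1, as was the sum. The sum and Itgam were highest there on replicate 3, and Itgb2 and Itgal on replicate 2. Itga4 was highest on replicate 1 and lowest on replicate 2 of the GFP-negative group, and highest on replicate 2 and lowest on replicate 3 of the GFP-positive group. The part of macrophages in these changes was not tested.

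**Figure D4:**
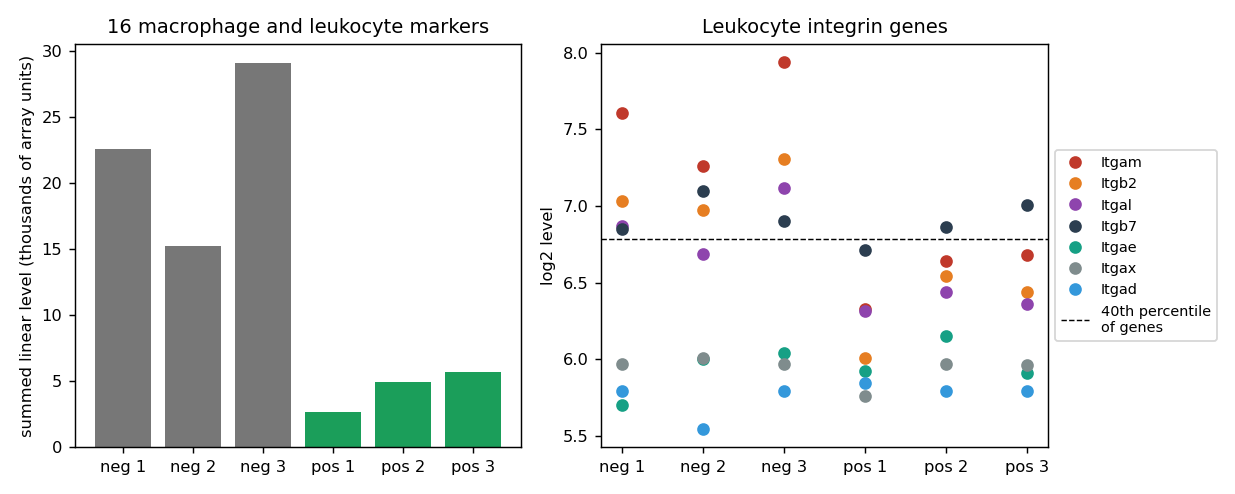
Left, summed linear level of 16 macrophage and leukocyte markers on each array, as bars from 0. Right, log2 level of the 7 leukocyte integrin genes on the same arrays, with the 40th percentile of genes dashed. The bars run from 15260 to 29088 in GFP-negative and from 2651 to 5656 in GFP-positive cells, and Itgam, Itgb2 and Itgal are below the dashed line on all 3 GFP-positive arrays.

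Laminin chains changed in both directions, with 2 of 10 lower and 1 higher. Lama1, the alpha chain of the first basement membranes of the embryo, read 9.11, 9.14 and 8.51 in GFP-negative and 7.21, 7.22 and 6.86 in GFP-positive cells. The groups lay over 1 log2 unit apart, and it fell 3.55-fold (−1.83 ± 0.19 SE, adjusted p = 0.00324). Replicate 3 was lowest in both groups, and the replicate block gave an SE of 0.07 (adjusted p = 0.00109). Lamc3, a gamma chain of restricted expression, read 8.09, 8.26 and 7.86 against 6.82, 6.89 and 6.71 and fell 2.40-fold (−1.26 ± 0.11 SE, adjusted p = 0.00157), with its GFP-positive arrays close to the dim mark.

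Lamb1, the beta chain of most embryonic laminins, read 11.80, 11.89 and 11.85 in GFP-negative and 12.38, 12.32 and 12.29 in GFP-positive cells. Spread within a group was small, and the gene was 1.40-fold higher (0.49 ± 0.05 SE, adjusted p = 0.00408). Lamc1, the gamma chain found in most laminins, read 11.85, 11.93 and 12.02 against 12.15, 12.21 and 12.21. Lama4 is the alpha chain of vessels and of the basement membrane of fat cells. It read 11.93, 12.08 and 12.16 against 12.35 on all 3 GFP-positive arrays, with identical levels on GFP-positive replicates 2 and 3. Neither Lamc1 nor Lama4 had overlapping groups, but their changes did not pass: 0.26 ± 0.06 SE for Lamc1 (adjusted p = 0.0627, and 0.0453 with the replicate block) and 0.30 ± 0.07 SE for Lama4 (adjusted p = 0.0584, and 0.0517 with the block). Both passed after median centring (0.0253 and 0.0259), without dim genes (0.0447 and 0.0416) and with a trend in the variance model (0.0286 and 0.0299). Lama4, Lamb1 and Lamc1 are the chains of one known laminin trimer, and all 3 had higher values in GFP-positive cells, 1 of them past the test.

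Lamb2, the beta chain of muscle synapses and of vessel walls, read 11.11, 11.24 and 11.33 against 10.88, 10.75 and 11.02. Its change of −0.35 ± 0.09 SE passed with the replicate block alone (adjusted p = 0.0840, and 0.0396 with the block). Lama2, the alpha chain of skeletal muscle and Schwann cells, had overlapping groups and changed by 0.15 (95% interval −0.08 to 0.37). Lama3 and Lamb3, chains of the epidermal laminin, changed by 0.02 (−0.19 to 0.23) and −0.18 (−0.51 to 0.15), and Lama5, the main alpha chain of mature epithelia and vessels, by −0.17 (−0.34 to −0.01, adjusted p = 0.260).

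Of the nidogens, Nid2 passed. It read 11.95, 11.96 and 12.14 in GFP-negative and 12.41, 12.32 and 12.44 in GFP-positive cells, a 1.29-fold rise without overlap (0.37 ± 0.07 SE, adjusted p = 0.0318). The call held only without negative replicate 3 when 1 array was left out (adjusted p up to 0.122). Nid1 read 12.87, 12.89 and 13.09 against 13.09, 13.06 and 13.24, so that GFP-negative replicate 3 lay within the GFP-positive range. Its change of 0.18 did not pass (95% interval −0.02 to 0.38, adjusted p = 0.333), and its other probe set gave 0.19 (adjusted p = 0.320 when both were kept as separate features).

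**Figure D5:**
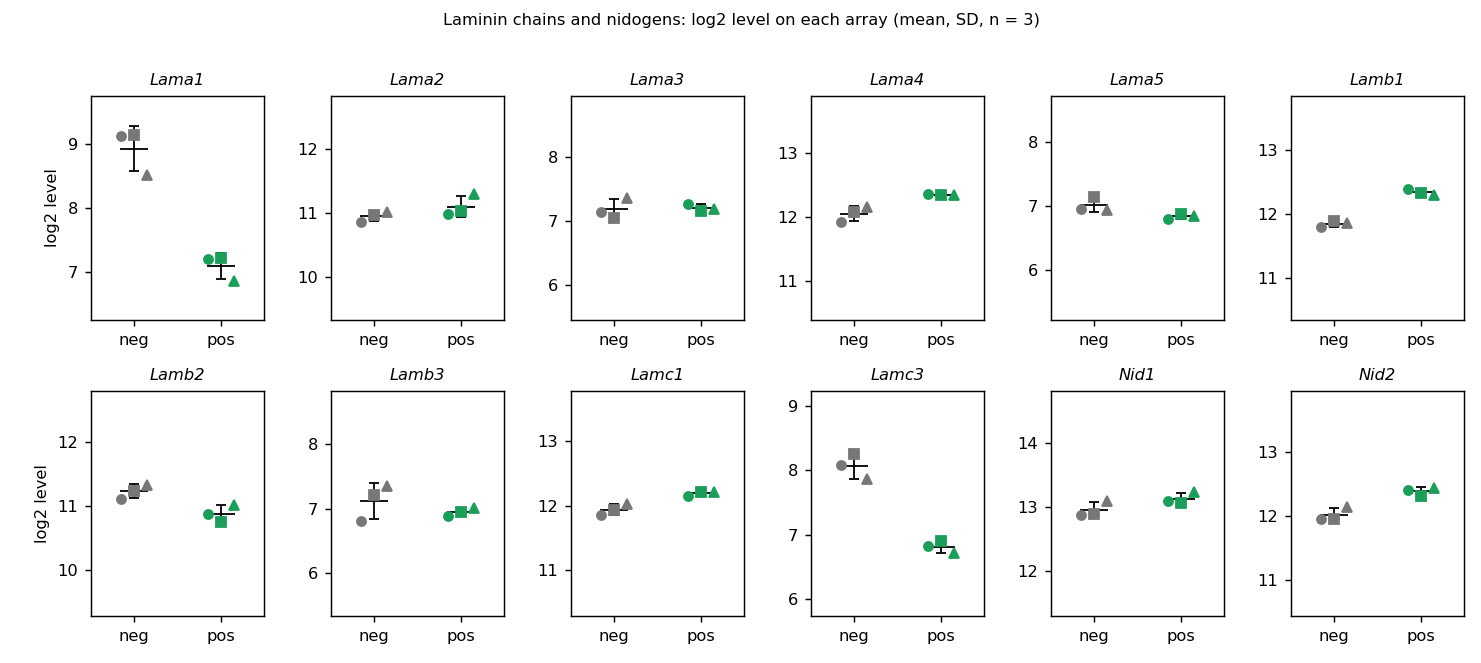
Log2 level (vertical axis, 3.5 units in every panel) of the 10 laminin chains and 2 nidogens on each array, grey for GFP-negative and green for GFP-positive, with mean and SD (n = 3). Lama1 and Lamc3 drop by more than 1 unit, and Lamb1, Lamc1, Lama4 and Nid2 have all green points above the grey ones at a small distance.

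Other basement membrane genes were also split, with 6 of 23 lower and 3 higher and a median log2 change of −0.002. The collagen IV genes Col4a1 and Col4a2, which encode the network of nearly all basement membranes, were 1.49-fold (0.57 ± 0.08 SE, adjusted p = 0.00832) and 1.40-fold higher (0.49 ± 0.09 SE, adjusted p = 0.0261), and the calcium-binding matrix gene Smoc2 was 1.43-fold higher (adjusted p = 0.0107). The call of Col4a2 ended without any 1 array other than negative replicate 2 (up to 0.0963), and that of Smoc2 without positive replicate 1 or 3 (up to 0.0562). Ntn4, a short laminin-like netrin that can insert into laminin networks, fell 1.76-fold (−0.82 ± 0.09 SE, adjusted p = 0.00371). Frem1, of the Fraser complex beneath the epidermis, fell 1.99-fold (−0.99 ± 0.12 SE, adjusted p = 0.00552), and the hemicentin gene Hmcn1 1.69-fold (adjusted p = 0.00800). Chosen after its values were seen, Npnt, the ligand gene of Itga8, fell 1.49-fold (−0.58 ± 0.11 SE, adjusted p = 0.0251). Leaving out 1 of negative replicates 1 and 3 or positive replicates 1 and 2 ended that call (up to 0.109). The perlecan gene Hspg2 and the dystroglycan gene Dag1, likewise chosen after their values were seen, changed by 0.16 (adjusted p = 0.275) and 0.07 (adjusted p = 0.638).

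Among integrin ligands outside the basement membrane, 6 of 27 measured were lower and none higher, with a median of −0.10. The vitronectin gene Vtn fell 3.51-fold (−1.81 ± 0.16 SE, adjusted p = 0.00204). Edil3, a secreted RGD protein, fell 2.31-fold (−1.21 ± 0.10 SE, adjusted p = 0.00149), and Tnn, which encodes tenascin W of bone and periosteum, fell 1.87-fold (adjusted p = 0.00205). Vcam1, the ligand of Itga4's receptor, fell 1.76-fold (−0.82 ± 0.08 SE, adjusted p = 0.00218). Fn1, the ligand gene of the Itga5 receptor, was chosen after its values were seen and changed by −0.02 ± 0.05 SE (adjusted p = 0.894).

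Genes of the intracellular adhesion complex held 2 lower and 1 higher gene among 33 measured, with a median of 0.04. Fermt3, the kindlin of blood cells, fell 2.45-fold (−1.29 ± 0.24 SE, adjusted p = 0.0270), beside the macrophage markers above. Parvb, an actin-binding partner of integrin-linked kinase, fell 1.59-fold (−0.67 ± 0.10 SE, adjusted p = 0.0120). Kank1, which links talin to microtubules, was 1.44-fold higher (0.53 ± 0.12 SE, adjusted p = 0.0469). Calls ended for Fermt3 without negative replicate 1 or any 1 positive replicate (up to 0.115), for Parvb without positive replicate 1 or 2 (up to 0.0611) and for Kank1 without any 1 array (up to 0.156). These 3 lists were not tested as sets, and their counts stand beside the 6.49% of all genes that passed. With the replicate block, 4 other basement membrane genes were higher and 6 lower, 8 ligand genes were lower, and the adhesion counts did not move. Of all genes, 10.0% passed with that block.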

How the data were processed

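The authors' deposited table holds 1 log2 value per probe set and array, 41345 in all. RMA and limma are named, per the submitters' processing notes, with versions, filters and library files not given in the sources used here. The log2 scale was read from the values. Because RMA gives the probe intensities of all arrays the same distribution, a change common to most genes would be hidden. The gene values need not share 1 distribution, and their array medians ran from 7.50 to 7.60.

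Probe sets listing 1 gene in the platform table (23521, against 1814 with several genes and 16010 with none or for control) were used, with symbols updated by gene identifier through RefSeq (GRCm38.p6). That gave 22180 genes, with no filter on dim genes. The groups were compared in R 4.3.3 with limma 3.58.1 (lmFit, then eBayes), and p-values were adjusted by Benjamini-Hochberg over all genes. Errors beside changes are moderated SE. The script was tested on simulated data whose noise was independent between arrays, so that test does not cover arrays paired by replicate number. The members and gene lists were chosen with earlier results of these data known. All members could be named. Of the pathway lists, up to 4 passing genes of smallest p were named, with those against the list's direction, and up to 3 of the largest changes per marker list.

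The labels do not say what a replicate number shares. Over genes, the deviations of 2 arrays from their group means had correlations of 0.314 to 0.519 where the arrays shared a number. Where they did not, the correlations were −0.384 to −0.0243. Deviations cancel within a group, so positive values for shared numbers entail negative ones elsewhere, and the ranges are not independent. The numbers were taken to pair the arrays on the data alone. Unless said otherwise, errors, intervals, calls, counts and results with an array left out are from the fit without this block. For members, blocked values stand beside a result where the call differs. No scan date or batch is given. The alternatives were this block, median centring, quantile normalization, array weights, a robust eBayes, an eBayes trend, no dim genes, probe sets averaged or kept apart, a threshold of 0.01 and each array left out in turn.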

Additional observations from a re-analysis of the deposited data

How the results depend on the processing

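All 14 members that passed kept their direction under every alternative run that held them. The fit without dim genes held neither Itgal nor Itgb2, whose means over the 6 arrays were below the dim mark, and 9 members were lower in it. At an adjusted p under 0.01, 7 members passed (1 higher, 6 lower), as did 539 of all genes, 4 other basement membrane genes and 0 intracellular adhesion genes by limma. With the replicate block 2228 genes passed, and with the block, median centring, a variance trend or without dim genes 5 members were higher. With 1 array left out, 7 to 11 members passed (1 to 2 higher, 6 to 9 lower), of 629 to 1067 genes, with 5 to 8 other basement membrane, 4 to 5 ligand and 0 to 2 intracellular adhesion genes. Without negative replicate 1 the count of members was 9, without negative replicate 2 it was 9, and without positive replicate 1, 2 or 3 it was 7, 8 or 7. The cause was not tested beyond the smaller number of arrays. Sign changes were limited to members that did not pass: Itgb1 (0.0246) and Itgb6 (0.0223) after median centring, Lama3 with array weights (−0.0239) and, over the arrays left out, Lama3 (−0.0437 to 0.109), Itga2 (−0.195 to 0.277), Itga3 (−0.186 to 0.0129), Itgae (−0.0279 to 0.143) and Itgb3 (−0.0842 to 0.387). Levels near background limit Itgad, Itgae, Itgax and Itgb6, which were dim in both groups.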

Other observations

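Neighbours of the members on the chromosome were looked at after the values of the members were seen. In RefSeq gene order, 61 protein-coding neighbours that are not members were measured, of which 4 were lower and 2 higher (9.84%, against 6.49% of all genes). Both neighbours of Itgbl1 on chromosome 14 were among them. Nalcn, which encodes a sodium leak channel, read 6.87, 6.70 and 6.62 on GFP-negative and 5.98, 6.00 and 6.02 on GFP-positive replicates 1, 2 and 3 (−0.73 ± 0.07 SE, limma adjusted p = 0.00304), and Fgf14, an intracellular fibroblast growth factor homologue, read 8.03, 7.68 and 7.93 against 7.02, 7.34 and 7.39 (−0.63 ± 0.13 SE, adjusted p = 0.0374). The others were Dlx3 beside Itga3 (−0.80), Aif1l beside Lamc3 (−0.57), Lyst beside Nid1 (0.32) and Fam171b beside Itgav (0.29).

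Some levels were identical to the last deposited digit on several arrays. This was so for at least 3 of the 6 arrays in 4 members, Itgb1, Itgb6, Itgad and Itgax (10.5%), and in 8.48% of all genes. The level of Itgb1 was the same on GFP-negative replicate 1 and GFP-positive replicates 1 and 2, and its SD in GFP-positive cells was 0.00376.

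A probe set shared by Itga4 and Cerkl was dim on all arrays (5.86 to 6.09), as was the other probe set of Itgav (5.66 to 5.89), and neither was used.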
